A study of Mus musculus with 15 samples.

Results

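RNA levels of 41 genes of DNA replication and of the passage from G1 to S phase were followed in 15 cultures of adult neural stem cells (aNSCs), out of 53801 annotated genes counted. The 41 genes were a list of replication licensing factors, polymerases, nucleotide supply enzymes, E2F factors and their partners, and all of them were found by symbol. This list and the lists set beside it were chosen with earlier results of these data known. The cells came from the subventricular zone, the neurogenic layer beside the lateral ventricle, of mice of the strain C57BL6/J-129sv, 2 months of age, they grew in suspension, and poly(A) RNA was sequenced. All cultures carried the Rosa26-CreERT2 transgene, a ubiquitously expressed Cre recombinase that enters the nucleus when 4-hydroxytamoxifen (4-OHT) binds it. The Fl/+ untreated group comprised 5 cultures of Trrap Fl/+; Rosa26-CreERT2 tg mice (numbers 19, 24, 26, 35 and 36) with both Trrap alleles intact. The Fl/+ 4-OHT group comprised cultures of the same 5 mice, so that each stands in both groups, collected on day 5 of 4-OHT, in which 1 Trrap allele could not be deleted. The Fl/Fl 4-OHT group comprised 5 cultures of Trrap Fl/Fl; Rosa26-CreERT2 tg mice (27, 28, 29, 37 and 39) collected on day 5 in the same way, in which both alleles could be deleted. The sources differ on the dose and on how many of the 5 days 4-OHT was present. Each library held 25720034 to 32187097 assigned counts.

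Before a cell copies its genome, the origin recognition complex with Cdc6 and Cdt1 loads rings of Mcm2 to Mcm7 onto origins in G1, a step called licensing. At the start of S phase the Cdc7 kinase with its activator Dbf4, together with cyclin E and Cdk2, allows Cdc45 and the GINS proteins to join the ring and form the active CMG helicase. Polymerases alpha, delta and epsilon then copy the strands on the Pcna clamp, and ribonucleotide reductase supplies the nucleotides. E2F transcription factors, held back by Rb family proteins until G1 cyclins act, drive transcription of most of these genes, and neural stem cells that divide express them together. Trrap is a large scaffold subunit shared by several histone acetyltransferase complexes.

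Trrap itself was at 193, 214, 184, 179 and 181 CPM (counts scaled to a library size common to all libraries) in the Fl/+ untreated cultures of mice 19, 24, 26, 35 and 36, at 138, 204, 171, 165 and 142 CPM in the Fl/+ 4-OHT cultures of the same mice, and at 92.9, 115, 142, 89.2 and 82.8 CPM in the Fl/Fl 4-OHT cultures of mice 27, 28, 29, 37 and 39. The Fl/Fl 4-OHT level was 1.56-fold below that of Fl/+ 4-OHT (log2 change -0.64, SE 0.16, adjusted p = 0.0115, edgeR quasi-likelihood test with Benjamini-Hochberg adjustment), with an overlap of the groups through mouse 29. Whole-gene counts include exons outside the deleted part. The library labelled Fl/Fl 39 is labelled female, but held 0.313 CPM of Xist, the RNA of the inactive X chromosome, and 54.0 CPM of the Y-linked gene Ddx3y, whereas the other libraries labelled female held 335 to 692 CPM of Xist. The library labelled Fl/+ 4-OHT 36 is labelled male and held 74.7 CPM of Xist, and the untreated culture of the same mouse held 5.89 CPM, against 0.154 to 0.541 CPM in the other libraries labelled male. Counts of called members and their medians are given with and without these libraries.

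All 14 markers of neural stem cells, including Nes and Sox2, had a mean of 1 CPM or more in every group, with a summed level of 9154 to 15380 CPM across the libraries. The summed level of 7 oligodendrocyte markers ranged from 212 to 703 CPM in untreated, 561 to 1098 CPM in Fl/+ 4-OHT and 687 to 2748 CPM in Fl/Fl 4-OHT cultures. In the same order, 9 neuron markers summed to 866 to 1140, 841 to 1016 and 583 to 822 CPM, and 6 astrocyte markers to 2844 to 3597, 2839 to 3161 and 2337 to 3816 CPM. Microglia markers summed to 2.01 CPM at most, with Aif1 at 0 in all untreated and Fl/+ 4-OHT and Ptprc at 0 in all untreated and Fl/Fl 4-OHT libraries. After Trrap deletion 5 of the 14 neural stem cell markers were called lower and none higher (median log2 change -0.18), against 15.0% of all genes tested called lower and 16.8% called higher. They were Sox2, Fabp7, Prom1, Hes5 and Notch1. Of these, Fabp7, Hes5 and Notch1 did not overlap between the groups, against 11.4% of all genes that were lower without overlap. The doublecortin gene Dcx, a marker of young neurons, was 5.68-fold lower without overlap, Tubb3 was called lower, and of the other markers Slc17a7 (neuron), Aldoc (astrocyte) and Mobp (oligodendrocyte) were called higher, with a median of 1.22 over the 7 oligodendrocyte markers. After 4-OHT in Fl/+ cultures, where 7.34% of all genes were called higher, 6.45% lower and 6.52% were higher without overlap, 5 of 7 oligodendrocyte markers were called higher, all 5 without overlap (median 2.86). In that comparison 4 of 6 astrocyte markers were called lower, and 2 of 14 neural stem cell markers higher and 4 lower. In Fl/Fl 4-OHT against untreated cultures, where 15.7% of all genes were called higher and 15.1% lower, 6 of 7 oligodendrocyte markers were called higher (median 4.18). There 4 of 6 astrocyte and 6 of 14 neural stem cell markers were called lower, as were 6 of 9 neuron markers, with 1 higher. The part of these shifts in the results that follow was not tested. In bulk RNA, fewer cycling cells and less RNA per cycling cell cannot be told apart.

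After Trrap deletion (Fl/Fl 4-OHT against Fl/+ 4-OHT, the comparison that asks what the loss of the second Trrap allele goes with), 7 of the 41 genes fell and none rose. The genes that fell were Rrm2, E2f2, E2f8, Dbf4, Cdc45, Pola2 and Slbp, by 2.67-fold for Rrm2, 1.84-fold for E2f2 and 1.27- to 1.58-fold for the others. This is 17.1% of the list, against 31.7% of all 15036 genes tested that were called in either direction, 15.0% that were called lower and 16.8% that were called higher, so the share that fell is near that of all genes. By sign alone, 38 of the 41 log2 fold changes were negative, with a median of -0.37, against 0.02 over all genes tested. The median SE was 0.19 for the 41 genes and 0.14 for all genes, and 18 of the 41 (43.9%) had an unadjusted p under 0.05, against 43.0% of all genes. The groups did not overlap for Rrm2, E2f2 and Pola2, against 11.4% of all genes that were lower without overlap.

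The count of 7 depended on which cultures entered the fit. Without the library labelled Fl/Fl 39, 19 members were called, all lower, against 26.7% of all genes called and 13.3% called lower, and the median was -0.48. The 12 added were Ccne2, Chaf1b, Cdc6, Mcm6, Mcm10, Chaf1a, Mcm7, Rrm1, Lig1, Fen1, Pcna and Pold1. E2f8 was then at -0.81 and Cdc45 at -0.76. Without Fl/+ 4-OHT 26 the count was 11, all lower, against 31.0% of all genes called and 15.2% called lower. It was 2 (Rrm2 and E2f2) without Fl/+ 4-OHT 19, 35 or 36, where 24.8%, 27.0% and 27.9% of all genes were called, or without Fl/Fl 29 (28.3%). The median was -0.35 without the library labelled Fl/+ 4-OHT 36.

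**Figure D1:**
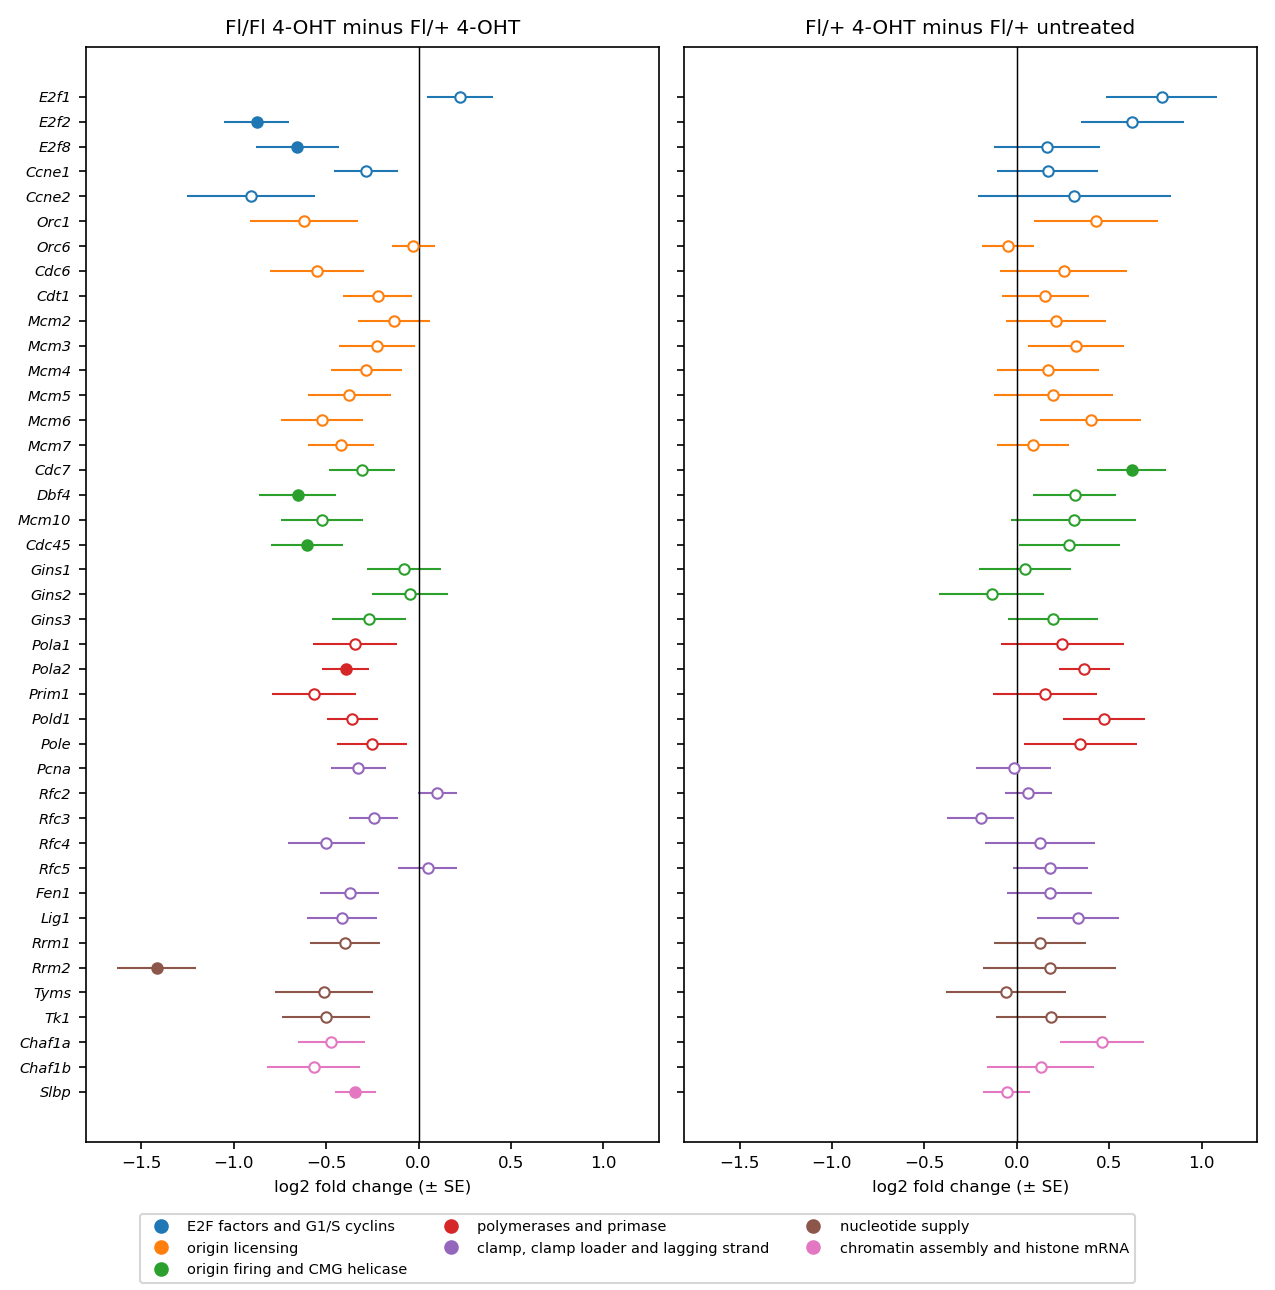
Log2 fold change (horizontal axis, ± SE) of the 41 genes, coloured by role, for Trrap deletion (left) and for 4-OHT in Fl/+ cultures (right); filled points passed an adjusted p of 0.05 and open points did not. On the left 38 of 41 points lie below 0 and 7 are filled, on the right 35 of 41 lie above 0 and only Cdc7 is filled.

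Promoter windows of RefSeq (GRCm38.p6, 250 bases before to 50 bases after the start) were given for 35 of the 41 genes and were not given for Ccne2, Mcm4, Gins1, Gins2, Pole and Rfc2. They were searched on both strands for the E2F words TTTCCCGC, TTTGGCGC, TTTCGCGC and TTTGCCGC, the CCAAT box, the Sp1 GC box GGGCGG and the CHR words TTTGAA and TTCGAA, and no GC box overlapped an E2F word in these windows. An E2F word was present in 12 of 35 windows (34.3%), against 2.95% of the windows of 16516 protein-coding genes. The CCAAT box was present in 57.1% against 38.8%, the GC box in 74.3% against 48.2% and a CHR word in 25.7% against 17.3%. With the 250 bases before the start alone, an E2F word was present in 22.9% against 2.43%. Of the 7 genes that fell after Trrap deletion, 1 (E2f2) held an E2F word, and of the other 28 genes 11 did. This split depended on which genes were called. Without the library labelled Fl/Fl 39, Cdc6, Mcm6, Mcm7 and Pold1 were also called, and these hold E2F words. Chaf1b, Mcm10, Chaf1a, Rrm1, Lig1, Fen1 and Pcna were then called too and hold none. A match describes letters only, and its absence says nothing of binding.

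The stretches before the start of 5 genes are shown because they span the range seen. Mcm6 holds 3 E2F words, the most of any member, and Mcm5 holds 2. Neither passed the test after Trrap deletion with all libraries in the fit. Rrm2 and E2f2 fell furthest among those that passed and hold none there (the E2F word of E2f2 begins 40 bases after the start). Rrm1 encodes the partner subunit of Rrm2. Each reads 5′ to 3′ along the gene, and the bases in the gene's annotated exons are left out. Capitals mark E2F words in Mcm5 (chr8:75109259-75109508, plus strand) and Mcm6 (chr1:128359706-128359955, minus strand), where neighbouring words overlap, and CCAAT boxes, written in this direction, in Rrm2 (chr12:24708004-24708240, plus strand), Rrm1 (chr7:102441445-102441694, plus strand) and E2f2 (chr4:136172024-136172273, plus strand).
Mcm5: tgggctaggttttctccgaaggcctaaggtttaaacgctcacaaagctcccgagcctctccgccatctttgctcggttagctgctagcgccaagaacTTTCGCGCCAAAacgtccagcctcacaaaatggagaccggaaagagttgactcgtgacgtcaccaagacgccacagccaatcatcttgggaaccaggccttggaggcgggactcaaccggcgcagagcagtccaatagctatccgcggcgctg
Mcm6: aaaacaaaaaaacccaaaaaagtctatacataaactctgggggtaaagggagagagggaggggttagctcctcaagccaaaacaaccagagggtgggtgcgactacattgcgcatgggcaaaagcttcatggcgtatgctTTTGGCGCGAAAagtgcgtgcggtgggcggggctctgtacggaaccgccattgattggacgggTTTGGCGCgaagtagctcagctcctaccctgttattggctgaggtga
Rrm2: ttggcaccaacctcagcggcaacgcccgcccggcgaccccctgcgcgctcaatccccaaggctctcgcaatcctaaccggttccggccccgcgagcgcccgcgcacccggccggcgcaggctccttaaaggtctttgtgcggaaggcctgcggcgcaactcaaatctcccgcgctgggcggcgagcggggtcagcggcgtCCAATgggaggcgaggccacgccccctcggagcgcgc
Rrm1: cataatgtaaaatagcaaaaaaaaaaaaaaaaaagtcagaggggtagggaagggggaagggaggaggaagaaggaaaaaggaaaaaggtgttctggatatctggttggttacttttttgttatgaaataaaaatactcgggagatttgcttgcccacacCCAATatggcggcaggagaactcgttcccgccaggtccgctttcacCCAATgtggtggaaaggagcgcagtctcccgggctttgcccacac
E2f2: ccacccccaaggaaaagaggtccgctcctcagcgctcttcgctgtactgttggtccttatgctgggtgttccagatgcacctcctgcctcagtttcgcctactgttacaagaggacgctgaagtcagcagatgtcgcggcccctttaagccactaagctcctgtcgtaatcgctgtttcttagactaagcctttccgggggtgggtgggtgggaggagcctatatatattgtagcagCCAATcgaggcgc
Counted from the RefSeq start, the E2F words of Mcm5 begin 153 and 149 bases before the start and those of Mcm6 110, 106 and 47 bases before it. The CCAAT box of Rrm2 begins 50 bases before the start and that of E2f2 13 bases before it.

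Nucleotide supply held the largest change. Rrm2 (chromosome 12, 24708241 to 24714146, plus strand) encodes the small subunit of ribonucleotide reductase, which is made in S phase and sets the enzyme's activity. It was at 152, 123.5, 95.1, 169 and 172.5 CPM in the Fl/+ 4-OHT cultures and at 66.95, 49.25, 38.6, 37.7 and 71.2 CPM in the Fl/Fl 4-OHT cultures. The lowest Fl/+ 4-OHT culture, mouse 26, stood above the highest Fl/Fl 4-OHT culture. Rrm2 fell 2.67-fold, from 142 ± 32.8 to 52.7 ± 15.7 CPM (mean ± SD, 5 cultures each; log2 fold change -1.42, SE 0.22, edgeR adjusted p = 0.00086). Rrm1, the large subunit, was at 284 ± 54.45 and 213 ± 59.25 CPM (log2 change -0.40, SE 0.19, edgeR adjusted p = 0.13). Tyms, the thymidylate synthase, and Tk1, the S phase thymidine kinase, had log2 fold changes of -0.51 and -0.50, and neither passed the test. Tyms and Pcna have annotated pseudogenes (Tyms-ps, Pcna-ps1 and Pcna-ps2), so their counts are uncertain to the extent that reads were left out as shared.

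Among the 5 regulators at the head of the pathway, 4 estimates were negative and that of E2f1 was positive. The difference between them was not tested. E2f2 (chromosome 4, 136172394 to 136196057, plus strand), an activator E2F, was at 24.9, 24.6, 18.8, 24.75 and 19.5 CPM in Fl/+ 4-OHT and at 15.7, 12.1, 10.3, 8.16 and 14.3 CPM in Fl/Fl 4-OHT cultures, with no overlap. It fell 1.84-fold (log2 change -0.88, SE 0.18, edgeR adjusted p = 0.0038). E2f1, the best known activator E2F (chromosome 2, 154559407 to 154569892, minus strand), was at 23.9, 37.1, 20.3, 28.3 and 25.0 CPM in Fl/+ 4-OHT and at 29.3, 35.9, 32.45, 21.6 and 36.5 CPM in Fl/Fl 4-OHT cultures. The groups overlapped throughout, and E2f1 had the highest log2 fold change of the list (0.22, SE 0.18, edgeR adjusted p = 0.36). It lay at 0.13 without Fl/+ 4-OHT 26 and at 0.36 without Fl/+ 4-OHT 24. E2f8 (chromosome 7, 48866429 to 48881596, minus strand), an atypical E2F that represses E2F targets, was at 29.3, 30.5, 22.75, 33.0 and 34.2 CPM against 23.2, 20.3, 14.3, 10.3 and 25.9 CPM. The library labelled Fl/Fl 39 and Fl/Fl 27 lay above the lowest control. E2f8 fell 1.58-fold (log2 change -0.66, SE 0.22, edgeR adjusted p = 0.044).

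Cyclin E binds Cdk2 at the G1/S boundary. Ccne1, which encodes cyclin E1, was at 29.1, 22.4, 21.8, 34.1 and 29.0 CPM in Fl/+ 4-OHT and at 28.1, 20.2, 16.0, 19.6 and 26.95 CPM in Fl/Fl 4-OHT cultures (log2 change -0.28, SE 0.17, edgeR adjusted p = 0.24). Ccne2, for cyclin E2, was at 20.2, 12.0, 7.54, 18.75 and 25.0 CPM against 9.32, 10.6, 5.15, 5.26 and 13.7 CPM (log2 change -0.91, SE 0.35, edgeR adjusted p = 0.066). The estimate for Ccne2 was the second lowest of the list but had the largest SE among the genes given here, and it passed the test without the library labelled Fl/Fl 39 (-1.13) and by DESeq2. Neither cyclin separated the groups.

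Among the 10 licensing genes 0 passed the edgeR or the DESeq2 test, 2 had an unadjusted p under 0.05, against 43.0% of all genes, and all 10 log2 fold changes were negative. The 6 subunits of the Mcm ring ranged from -0.13 for Mcm2 to -0.52 for Mcm6. Mcm2 was at 159, 145, 115.5, 169.6 and 173 CPM in Fl/+ 4-OHT and at 164, 144, 98.3, 91.4 and 189.6 CPM in Fl/Fl 4-OHT cultures (SE 0.20, edgeR adjusted p = 0.64). The highest Mcm2 value of both groups was in the library labelled Fl/Fl 39, without which the estimate was -0.29, and without Fl/Fl 37 or 29 it was -0.03 or -0.05. Orc6, the smallest subunit of the origin recognition complex, was at 41.3, 29.98, 31.1, 39.2 and 42.1 CPM against 36.75, 37.9, 32.8, 31.1 and 39.7 CPM (log2 change -0.03, SE 0.11, edgeR adjusted p = 0.88). Its subunit Orc1, which is made in G1, and the loader Cdc6 had estimates of -0.62 and -0.55 with SEs of 0.29 and 0.25, and neither passed. Mcm7 shares 3.89% of its exon bases with Mir25 and Mir93, which lie inside it on the same strand.

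Of 7 genes of origin firing and the CMG helicase, Dbf4 and Cdc45 fell (28.6%), against 15.0% of all genes called lower. Dbf4 (chromosome 5, 8396973 to 8422716, minus strand) was at 49.9, 47.4, 30.4, 51.4 and 59.6 CPM in Fl/+ 4-OHT and at 33.5, 32.7, 24.8, 18.8 and 40.0 CPM in Fl/Fl 4-OHT cultures (log2 change -0.65, SE 0.21, edgeR adjusted p = 0.035). The low control of mouse 26 overlapped with 3 Fl/Fl 4-OHT cultures. Cdc45 (chromosome 16, 18780447 to 18811987, minus strand) was at 31.5, 28.55, 22.5, 33.9 and 36.7 CPM against 22.2, 21.3, 14.9, 13.7 and 27.5 CPM (log2 change -0.60, SE 0.19, edgeR adjusted p = 0.035), with overlap only through the library labelled Fl/Fl 39. Cdc7, the kinase that Dbf4 activates, had a log2 fold change of -0.31 (SE 0.18, edgeR adjusted p = 0.21). Of the GINS genes in the list, Gins3 was at -0.27 (SE 0.20) and did not pass, and Gins1 and Gins2 lay near 0. Gins1 was at 14.5, 9.34, 8.93, 13.45 and 15.45 CPM against 12.1, 13.05, 9.54, 8.24 and 14.8 CPM (log2 change -0.08, SE 0.20, edgeR adjusted p = 0.80). Gins2 was at 24.7, 25.7, 19.0, 26.9 and 28.1 CPM against 24.95, 26.8, 17.2, 15.3 and 34.7 CPM (log2 change -0.05, SE 0.21, edgeR adjusted p = 0.88).

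Pola2, the accessory subunit of the polymerase that starts each new strand with primase (chromosome 19, 5940542 to 5964202, minus strand), fell 1.31-fold. It was at 44.9, 44.5, 39.7, 43.3 and 44.05 CPM in Fl/+ 4-OHT cultures, a narrow band, and at 37.0, 35.3, 29.2, 22.8 and 38.5 CPM in Fl/Fl 4-OHT cultures, with no overlap (log2 change -0.39, SE 0.13, edgeR adjusted p = 0.038). The catalytic subunits Pola1, Pold1 and Pole and the primase Prim1 had log2 fold changes of -0.34, -0.36, -0.25 and -0.57, and none of the 4 passed by edgeR, while the DESeq2 Wald test called Prim1 and Pold1. Slbp (chromosome 5, 33634952 to 33652574, minus strand), which binds the stem-loop of histone mRNAs, was at 38.0, 37.2, 32.0, 40.9 and 40.3 CPM against 32.2, 30.4, 26.8, 23.5 and 34.0 CPM (log2 change -0.34, SE 0.11, edgeR adjusted p = 0.035). The overlap came from the control of mouse 26. Chaf1a and Chaf1b, subunits of the chromatin assembly factor that places histones behind the fork, had estimates of -0.47 and -0.57 and did not pass by edgeR, while DESeq2 called Chaf1a.

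Among the 7 genes of the clamp, its loader and the lagging strand 0 passed the edgeR or the DESeq2 test, and 3 had an unadjusted p under 0.05, against 43.0% of all genes. Pcna, the sliding clamp, was at 98.2, 83.7, 77.5, 84.7 and 89.25 CPM in Fl/+ 4-OHT and at 72.9, 72.2, 52.5, 51.8 and 92.75 CPM in Fl/Fl 4-OHT cultures (log2 change -0.33, SE 0.15, edgeR adjusted p = 0.11). In 4 of 5 Fl/Fl 4-OHT cultures Pcna lay below every control, and the exception was the library labelled Fl/Fl 39, without which Pcna passed the test (-0.47). Rfc2 and Rfc5, small subunits of the clamp loader, lay on the other side of 0. Rfc2 was at 72.5, 77.6, 72.8, 74.8 and 73.8 CPM against 85.4, 83.4, 68.9, 61.9 and 95.0 CPM (log2 change 0.10, SE 0.11, edgeR adjusted p = 0.49). Rfc5 was at 33.5, 31.7, 25.4, 36.2 and 35.05 CPM against 35.9, 36.7, 27.0, 23.5 and 42.6 CPM (log2 change 0.05, SE 0.16, edgeR adjusted p = 0.84). The lagging strand enzymes Fen1 and Lig1, which trim and seal Okazaki fragments, had estimates of -0.37 and -0.41.

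**Figure D2:**
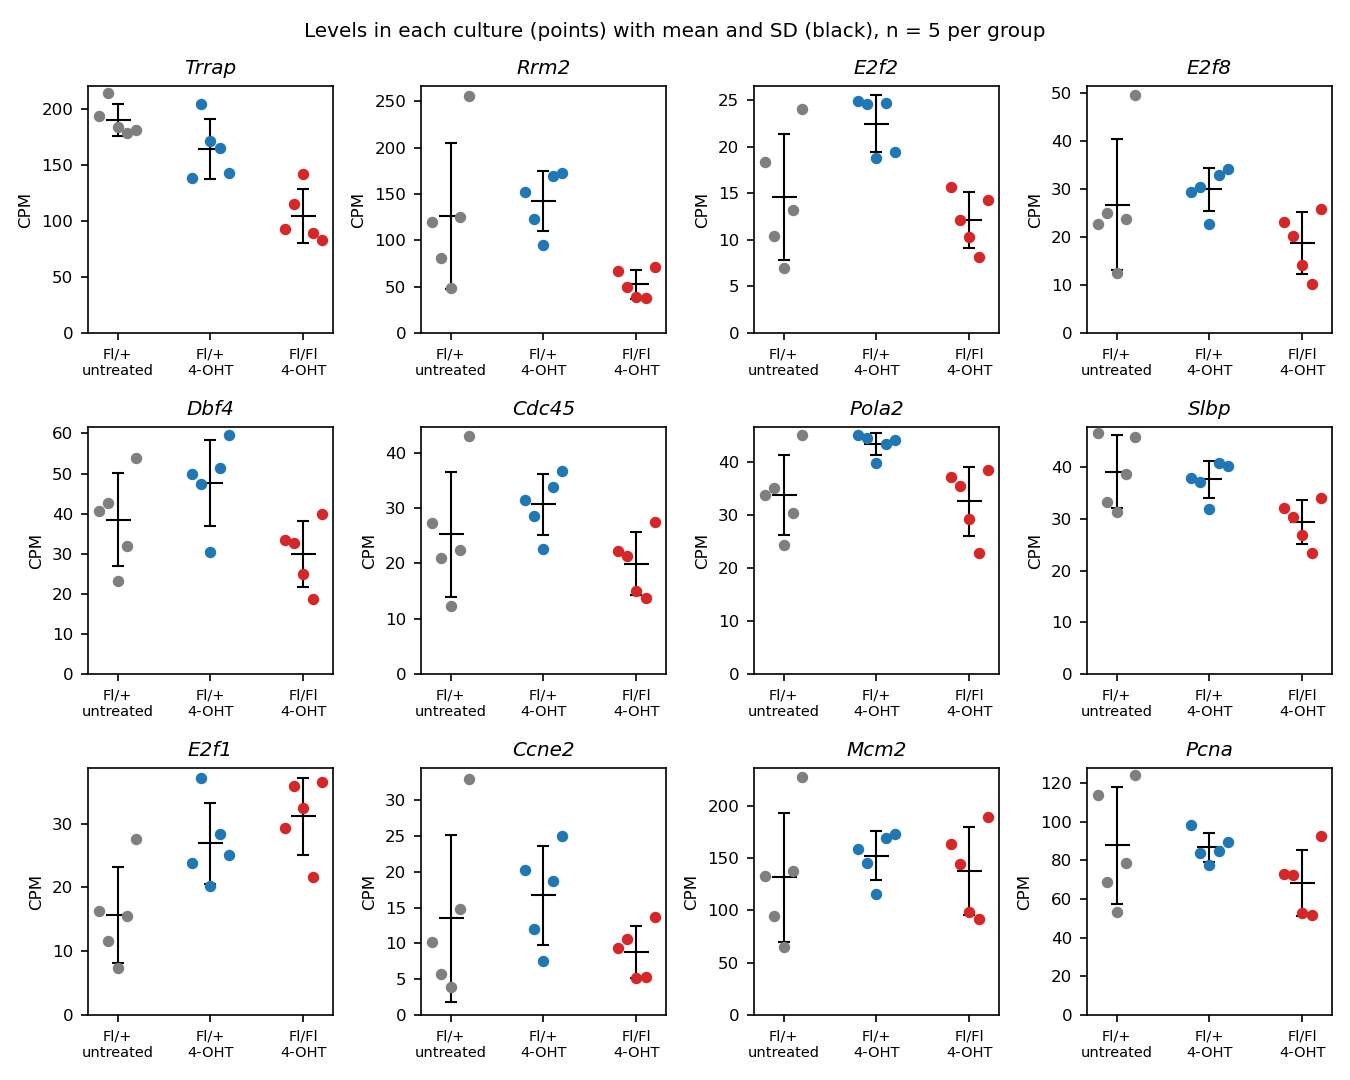
CPM (vertical axis) of Trrap and 11 of the genes in each culture by group, with mouse number rising from left to right within a group; black bars give mean and SD of 5 cultures. Rrm2, E2f2 and Pola2 separate Fl/Fl 4-OHT from Fl/+ 4-OHT cultures, while Mcm2, Pcna, Ccne2 and E2f1 do not.

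The calls differed in how they held under the 20 other settings tried for this comparison. Rrm2 and E2f2 kept their calls under 19 of them, all but the fit of mice 35 to 39 alone, where 0.0% of 15159 genes were called. Dbf4 kept its call under 14, Cdc45, Pola2 and Slbp under 11 each, and E2f8 under 9. Under the DESeq2 Wald test 11 members were called, all lower, against 36.4% of all genes called and 18.0% called lower.

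Ratios set Rrm2 and E2f2 against Rrm1 and E2f1 within the same culture. Both ratios were chosen after their values were seen. On a per-length scale, Rrm2 over Rrm1 was 2.12, 1.89, 1.85, 2.03 and 2.04 in Fl/+ 4-OHT cultures and 1.17, 0.883, 0.950, 0.977 and 0.944 in Fl/Fl 4-OHT cultures. The ratio E2f2 over E2f1 was 0.674, 0.429, 0.598, 0.565 and 0.503 in Fl/+ 4-OHT and 0.346, 0.219, 0.206, 0.244 and 0.253 in Fl/Fl 4-OHT cultures. Neither ratio overlapped between these groups. In untreated cultures the ratios were 1.80 ± 0.39 and 0.61 ± 0.07, beside 0.984 ± 0.109 and 0.254 ± 0.055 in Fl/Fl 4-OHT cultures. After 4-OHT the ratio of Rrm2 to Rrm1 was higher in 4 of 5 Fl/+ mice and that of E2f2 to E2f1 was lower in 4 of 5. The ratios are a description, with no test. Leaving out any 1 library, the one labelled Fl/Fl 39 included, the log2 difference after Trrap deletion ranged from -1.08 to -0.98 for Rrm2 over Rrm1 and from -1.25 to -1.06 for E2f2 over E2f1, an alternative added after the data were seen.

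**Figure D3:**
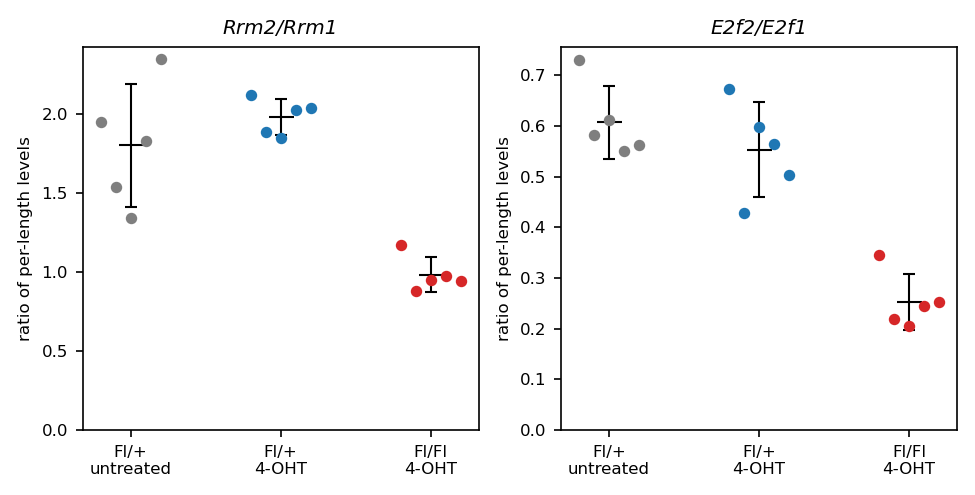
Ratio of per-length levels (vertical axis) of Rrm2 to Rrm1 (left) and of E2f2 to E2f1 (right) in each culture, with mean and SD of 5 cultures in black. All Fl/Fl 4-OHT points lie below all points of both other groups, with means of 0.984 and 0.254.

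The second comparison, 4-OHT in Fl/+ cultures of the same mice, asks what treatment and the possible loss of 1 allele go with. Trrap itself was 1.16-fold lower, in 5 of 5 mice, and was not called (log2 change -0.21, SE 0.11, edgeR adjusted p = 0.23, and 0.084 with the replicate block). Only Cdc7 rose when the pairing by mouse was not used, which is 2.44% of the list, against 13.8% of 14821 genes tested, 7.34% called higher and 6.45% called lower. Cdc7 was at 24.5, 22.15, 14.9, 24.8 and 33.1 CPM in the untreated and at 42.45, 34.6, 29.3, 38.0 and 39.2 CPM in the treated cultures of mice 19, 24, 26, 35 and 36, higher in 5 of 5 mice (log2 change 0.62, SE 0.18, edgeR adjusted p = 0.046). The call was lost under 11 of 22 other settings, among them the removal of any untreated culture but that of mouse 36 and of any treated culture but that of mouse 26, the library labelled Fl/+ 4-OHT 36 included (0 members called, against 9.93% of all genes, with a median of 0.16). With mouse as a replicate block, 8 members were called, all higher: Cdc7, Dbf4, E2f1, E2f2, Pola2, Pold1, Mcm6 and Chaf1a. This compares with 25.7% of all genes called with the block in either direction and 13.8% called higher. With the block and mouse 36 left out of both groups, a fit added after the data were seen, 27 members were called, all higher, against 24.0% of all genes called and 12.9% called higher, and the median was 0.49. Of the 41 log2 fold changes without the block, 35 were positive, with a median of 0.19 against -0.01 over all genes tested. With the block and all 5 mice 37 were positive, and the median was 0.30 against -0.003 over all genes.

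The untreated culture of mouse 36 stood against this direction. E2f1 was at 16.25, 11.5, 7.38, 15.5 and 27.6 CPM in the untreated cultures and, as above, between 20.3 and 37.1 CPM after 4-OHT, higher in 4 of 5 mice (log2 change 0.78, SE 0.30, edgeR adjusted p = 0.11; 0.88 and called with the replicate block). E2f2 was at 18.35, 10.4, 6.995, 13.2 and 24.1 CPM in the untreated cultures (log2 change 0.63, SE 0.28, edgeR adjusted p = 0.16; 0.74 and called with the replicate block). Pola2 was at 33.7, 34.95, 24.3, 30.3 and 44.9 CPM, and its log2 change of 0.37 (SE 0.14, edgeR adjusted p = 0.11) was called with the replicate block. The mouse that did not rise was mouse 36 for all 3 genes. Pold1, the catalytic subunit of polymerase delta, was at 48.5, 46.6, 25.2, 42.4 and 74.7 CPM untreated and at 66.8, 75.3, 57.2, 62.9 and 66.4 CPM treated (log2 change 0.47, SE 0.22, edgeR adjusted p = 0.18). Chaf1a was at 45.5, 35.2, 25.7, 42.4 and 73.9 CPM untreated and at 65.7, 60.2, 51.35, 64.3 and 64.9 CPM treated (log2 change 0.46, SE 0.23, edgeR adjusted p = 0.20). Without the untreated culture of mouse 36, 8 members were called, all higher, against 16.7% of all genes called and 9.01% called higher, and the median was 0.46. Without that of mouse 26 none was called, against 9.67% of all genes, and the median was 0.03. It was 0.11 without untreated 24 and 0.31 without Fl/+ 4-OHT 26. Over the members, 2 (Cdc7 and Dbf4) were higher in 5 of 5 mice, against 17.8% of all genes.

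Mouse numbers fall into the ranges 19 to 29 and 35 to 39, and the labels name no batch. Within mice 19, 24 and 26 the median of the 41 genes after 4-OHT was 0.45, and within mice 35 and 36 it was -0.03, with 0 members called by edgeR in either (8.3% and 7.07% of all genes). After Trrap deletion the medians were -0.31 and -0.54 in these ranges, with 2 members called (18.3% of all genes) and 0 (0.0% of all genes). These fits hold few libraries per group.

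In the third comparison, Fl/Fl 4-OHT against Fl/+ untreated cultures, treatment and genotype both differ and share the libraries of the comparisons above. E2f1 rose 2.01-fold (log2 change 1.01, SE 0.29, edgeR adjusted p = 0.024) and Rrm2 fell 2.37-fold (log2 change -1.24, SE 0.38, edgeR adjusted p = 0.027). Together they are 4.88% of the list, against 30.7% of 15032 genes tested, 15.7% called higher and 15.1% called lower. Rrm2 was at 120.2, 80.85, 49.0, 125 and 255.5 CPM in the untreated cultures, so that the untreated culture of mouse 26 lay within the Fl/Fl 4-OHT range. The untreated culture of mouse 36, at 27.6 CPM of E2f1, lay above 1 of 5 Fl/Fl 4-OHT cultures. The median of the 41 genes was -0.19 with 33 of 41 negative, and 0.00 over all genes tested. It turned to 0.09 without the untreated culture of mouse 36, where 2 members were called (31.0% of all genes). It was -0.32 without the library labelled Fl/Fl 39, where Rrm2 and Slbp were called (25.9% of all genes), and -0.09 and -0.06 without Fl/Fl 29 and 37. E2f1 lost its call without untreated 24, Fl/Fl 28 or the library labelled Fl/Fl 39, and Rrm2 without Fl/Fl 28, 29 or 37, so that 0 members were called without Fl/Fl 28 (24.3% of all genes) and 4 without untreated 26 (26.9%).

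The 3 groups are set side by side for 4 genes. E2f1 had means of 15.7 ± 7.56 CPM in untreated, 26.9 ± 6.38 CPM in Fl/+ 4-OHT and 31.1 ± 6.08 CPM in Fl/Fl 4-OHT cultures. E2f2 had 14.6 ± 6.73, 22.5 ± 3.10 and 12.1 ± 3.01 CPM, and Rrm2 had 126 ± 78.7, 142 ± 32.8 and 52.7 ± 15.7 CPM. Pcna had 87.7 ± 30.15, 86.7 ± 7.68 and 68.4 ± 17.0 CPM. The untreated SDs were the largest of the 3 groups for each of these 4 genes.

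The 41 genes varied more between cultures of the same group than most genes did. The median SD of log2 CPM over the 41 genes was 0.64 in untreated cultures, against 0.22 over the 9991 genes whose mean reached 10 CPM, and all 41 lay above that value. In Fl/+ 4-OHT cultures the medians were 0.27 and 0.17, with 34 of 41 above, and in Fl/Fl 4-OHT cultures 0.41 and 0.15, with 40 of 41 above. Without mouse 36 the median of the 41 genes was 0.46 in untreated and 0.28 in Fl/+ 4-OHT cultures, and without the library labelled Fl/Fl 39 it was 0.35. In untreated cultures Ccne2 had the largest SD (1.19) and Orc6 the smallest (0.24). Rfc2 in Fl/+ 4-OHT cultures, with an SD of 0.04, was the steadiest of all.

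The spread was shared, since the genes of a culture moved together. Taken as the deviation from the mean of all 15 libraries, the mean over the 41 genes was 0.13, -0.34, -0.85, 0.02 and 0.75 log2 units in the untreated cultures of mice 19, 24, 26, 35 and 36. All 41 genes lay above their mean in the untreated culture of mouse 36 and none in that of mouse 26. The Fl/+ 4-OHT cultures of these mice had 0.38, 0.15, -0.16, 0.41 and 0.45, so that mouse 26 was lowest and mouse 36 highest in both groups. In Fl/Fl 4-OHT cultures of mice 27, 28, 29, 37 and 39 the means were 0.04, -0.05, -0.47, -0.72 and 0.26, with 0 of 41 genes above their mean for mouse 37 and 37 of 41 for the library labelled Fl/Fl 39. The group means were -0.06 ± 0.59, 0.25 ± 0.25 and -0.19 ± 0.40 (SD over 5 cultures). The cultures of all 3 groups overlapped in this mean.

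**Figure D4:**
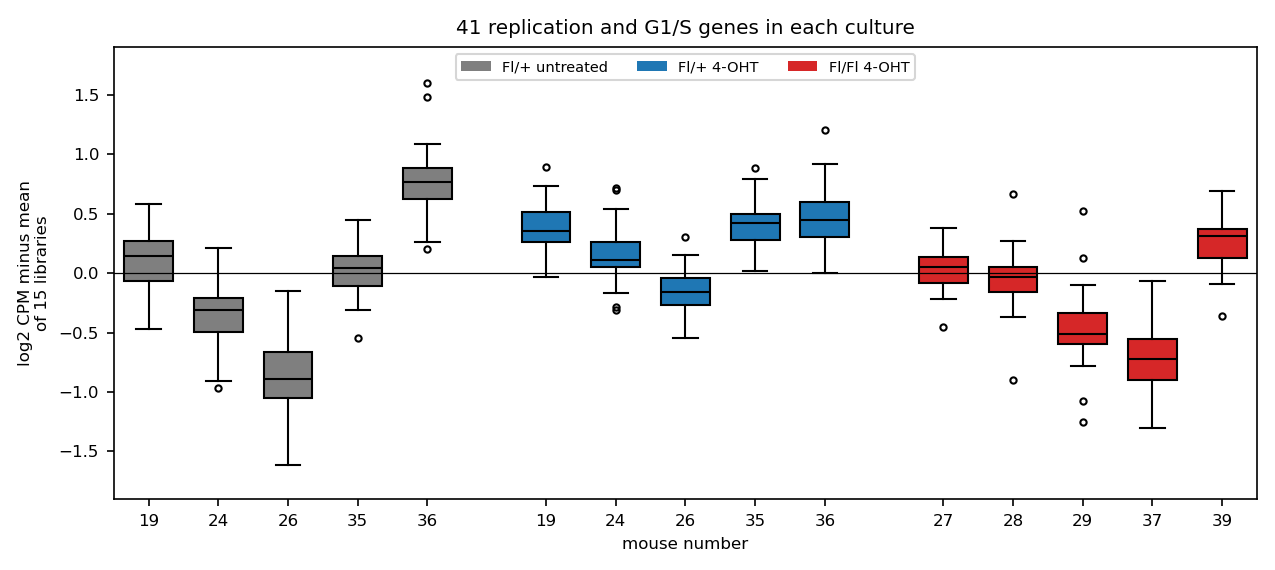
Deviation of log2 CPM from the mean of 15 libraries (vertical axis) for the 41 genes in each culture, by mouse number and group; boxes give quartiles and median, whiskers reach 1.5 interquartile ranges and circles lie beyond. The untreated cultures of mice 26 and 36 mark the extremes, with means of -0.85 and 0.75, and the Fl/+ 4-OHT cultures lie closest together.

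Levels of different genes were compared per length, as TPM (counts divided by exon length and scaled to a common total). In untreated cultures Rrm2 came first (163 ± 109 TPM), before Pcna (129 ± 47.1), Mcm4 (116 ± 57.4), Mcm3 (105 ± 47.2) and Mcm5 (98.4 ± 55.4), and Orc1 was last (5.66 ± 3.11). In Fl/+ 4-OHT cultures Rrm2 was again first (204 ± 51.3 TPM). In Fl/Fl 4-OHT cultures it stood at rank 9 (76.3 ± 23.0 TPM), or rank 8 (69.8 TPM) without the library labelled Fl/Fl 39, and Mcm3 (125 ± 38.9), Mcm4 (119 ± 32.1) and Pcna (114 ± 29.0) led. In each group the range of every gene over the 5 cultures overlapped that of the next in order. Within a culture the order was steadier for some neighbours: of 40 neighbouring pairs, the higher gene was above the lower in every culture for 3 pairs in untreated, 8 in Fl/+ 4-OHT and 8 in Fl/Fl 4-OHT cultures. Rrm2 was above Mcm3, the next gene, in 5 of 5 Fl/+ 4-OHT cultures, but above Pcna, the next gene, in only 3 of 5 untreated cultures. Cdc6 was above Orc1 in 5 of 5 cultures of each group. The median of the 41 genes was 23.8, 33.6 and 28.5 TPM in the 3 groups.

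**Figure D5:**
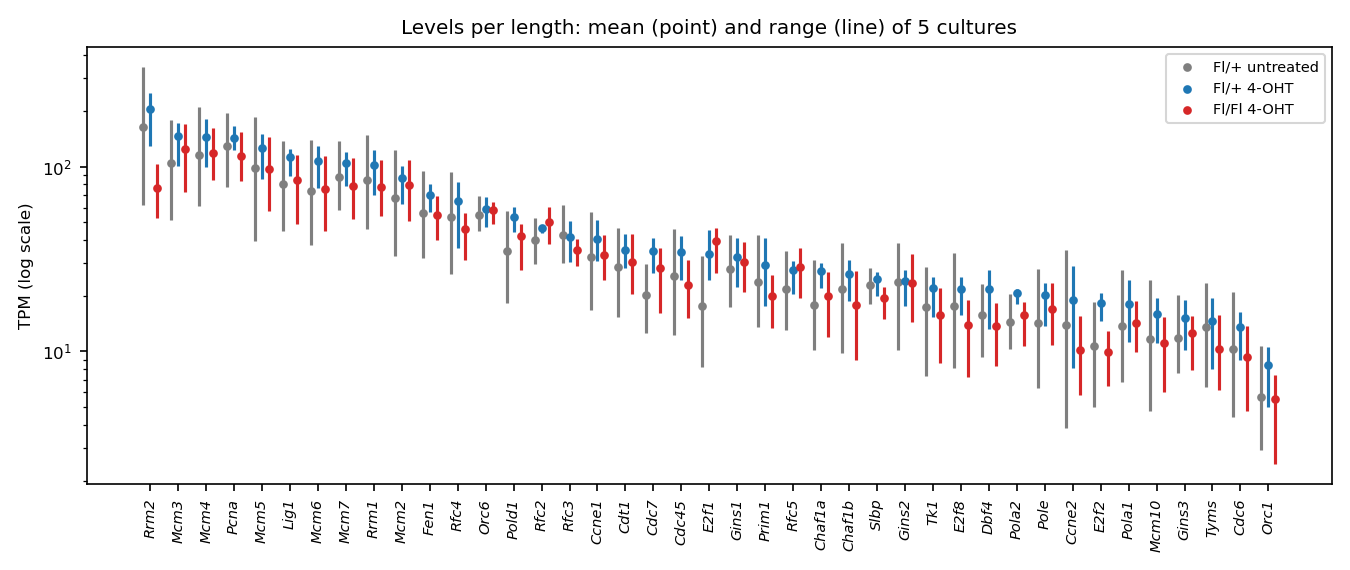
TPM (log axis) of the 41 genes, ordered by the Fl/+ 4-OHT mean; points are means and lines the range of 5 cultures, coloured by group. Rrm2 has the highest mean in the 2 Fl/+ groups and stands at rank 9 in Fl/Fl 4-OHT cultures.

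The remaining replication machinery was read from a list of 49 genes outside the 41. After Trrap deletion 14 of 49 passed the test, 12 lower and 2 higher, with a median of -0.17. This is 24.5% of the list lower and 4.08% higher, against 15.0% and 16.8% of all genes. The largest falls were Ticrr (log2 change -1.29, SE 0.18, edgeR adjusted p = 0.00062), which brings Topbp1 to origins that fire, Asf1b (-0.93, SE 0.18), a histone H3-H4 chaperone of dividing cells, and Uhrf1 (-0.90, SE 0.22), which carries DNA methylation onto new strands. The rises were Pold4 (0.53, SE 0.18), the smallest subunit of polymerase delta, and Mcm9 (0.41, SE 0.11), a helicase of repair. In the 4-OHT comparison 1 of 49 passed, Asf1a (-0.39, SE 0.10), which is 2.04% against 13.8% of all genes, and 11 were higher and 1 lower with the replicate block, 22.4% higher against 13.8% of all genes called higher with it. In Fl/Fl 4-OHT against untreated cultures 6 of 49 passed (12.2%, against 30.7% of all genes), with Dctpp1, Asf1a, Nasp and Rnaseh2a lower and Pold4 and Orc3 higher.

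Of 23 other E2F and G1/S regulators, 11 passed after Trrap deletion, 9 lower and 2 higher, with a median of -0.36. This is 47.8% of the list, against 31.7% of all genes, of which 15.0% were called lower and 16.8% higher. E2f7, the partner of E2f8 in repressing E2F targets, went from 19.1 ± 2.41 to 5.01 ± 1.41 CPM (log2 change -1.92, SE 0.20, edgeR adjusted p = 0.00012). Fbxo5, an inhibitor of the anaphase-promoting complex that guards S phase, went from 17.5 ± 4.14 to 5.36 ± 1.57 CPM (-1.69, SE 0.24), and Ccna2, cyclin A2, from 195 ± 31.0 to 81.2 ± 28.0 CPM (-1.25, SE 0.23). None of these 3 overlapped between the groups. Of the 23 genes 8 were lower without overlap, against 11.4% of all genes. The 2 genes that rose were Tfdp2 (0.55, SE 0.13), a dimer partner of E2Fs, and Lin52 (0.45, SE 0.12), a subunit of the DREAM complex. In the 4-OHT comparison only Lin52 passed (-0.63, SE 0.14), which is 4.35% against 13.8% of all genes, and 4 were higher and 1 lower with the replicate block, 17.4% higher against 13.8% of all genes. In Fl/Fl 4-OHT against untreated cultures 5 of 23 passed (21.7%, against 30.7% of all genes): Fbxo5, E2f7, Cdc25a and E2f3 were lower and Tfdp2 was higher.

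Genes of mitosis were set beside the replication genes because both mark dividing cells. After Trrap deletion 18 of 20 mitosis genes fell, among them Mki67 (-1.35, SE 0.25), Cenpe (-1.27, SE 0.22) and Cenpf (-1.27, SE 0.25), with a median of -0.97, against 7 of 41 and -0.37 for the replication genes. These 18 are 90% of the list, against 31.7% of all genes called and 15.0% called lower. In the 4-OHT comparison 0 of 20 passed by edgeR or DESeq2 (13.8% and 20.1% of all genes did) and 0 had an unadjusted p under 0.05, against 29.4% of all genes, while 11 rose with the replicate block, against 13.8% of all genes called higher with it, and the median was 0.40. Their median SD of log2 CPM was 0.63, 0.32 and 0.50 in the untreated, Fl/+ 4-OHT and Fl/Fl 4-OHT cultures, beside 0.64, 0.27 and 0.41 for the replication genes. The difference between the lists was not tested. In Fl/Fl 4-OHT against untreated cultures 3 of 20 fell (Ndc80, Cenpf and Mki67), which is 15.0% against 15.1% of all genes called lower, and 0 did without the untreated culture of mouse 36, where 31.0% of all genes were called. Without the library labelled Fl/Fl 39, 20 of 20 fell after Trrap deletion, against 13.3% of all genes called lower.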

How the data were processed

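Strand-specific single-end libraries of poly(A) RNA were sequenced by the authors, who mapped reads with STAR 2.5.4b to GRCm38 and assigned uniquely mapped reads to Ensembl genes with featureCounts 1.5.0. Their deposited tables hold raw counts without normalization or molecular identifiers, so paralogs and pseudogenes may be undercounted and PCR copies were counted. All 15 columns were used.

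Differential expression used edgeR 4.0.16 (R 4.3.3). After filtering with filterByExpr (minimum count 10) and TMM scaling, genes were tested by the quasi-likelihood F test on the 10 libraries of each comparison, with Benjamini-Hochberg adjustment over all genes and a threshold of 0.05. CPM uses TMM-scaled library sizes, with a prior count of 2 for log2 values. P-values measure the spread between cultures, which came from separate mice in the comparisons of Fl/Fl with Fl/+. In the 4-OHT comparison the same 5 mice stand in both groups, and the main fit did not use this pairing. The fit was also run on simulated counts drawn independently for each gene and library. These held no pairing by mouse and no shared movement of genes within a culture. Alternatives were DESeq2 1.42.0, other scalings, filters and covariates, leaving out libraries, and a block by mouse. Deviations from the group mean correlated with r from 0.205 to 0.606 between libraries of the same mouse. Between different mice r ranged from -0.514 to 0.339, so the ranges overlapped. TPM and coordinates used GENCODE M21 exons. The dose of 4-OHT is described differently in the sources and is not given, and they differ on whether it was present for all 5 days or was replaced by fresh medium before collection. Libraries held 25720034 to 32187097 counts.

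Values of every library are given for Trrap, the called genes with the largest changes after deletion (up to 10), the 5 smallest changes at 10 CPM or more, the 6 smallest p in the 4-OHT comparison, and Pcna, Mcm2, Ccne1, Ccne2 and E2f1. Members, lists and rule were chosen with earlier results of these data known.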

Additional observations from a re-analysis of the deposited data

How the results depend on the processing

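For Trrap deletion the count of 7 replication genes became 11 with DESeq2 (36.4% of all genes called in either direction, 18.0% lower), 4 with library size alone (31.9%), 3 with the dispersion of all 15 libraries (27.4%), 2 with mice 19 to 29 only (18.3%) and 0 with mice 35 to 39 only (0.0%), a fit of few samples. Leaving out 1 library gave 2 to 19. The 25 other pathway genes became 16 and 0 in those mouse ranges (21 to 27 on leaving out 1 library), and the 18 mitosis genes became 0 with mice 35 to 39 only (16 to 20). The median stayed between -0.48 and -0.29 on leaving out 1 library. Orc6 turned to 0.0016 with library size alone and 0.0575 with mice 19 to 29, Gins1 to 0.0697 with mice 19 to 29, and Rfc5 to -0.0939 with mice 35 to 39. On leaving out 1 library Orc6 ranged from -0.10 to 0.008, Gins1 from -0.19 to 0.0072, Gins2 from -0.23 to 0.0608 and Rfc5 from -0.0651 to 0.14.

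For 4-OHT the 1 replication gene called became 0 with no filter on low counts (28745 genes tested) and in either mouse range, 8 with the replicate block (25.7% of all genes, 13.8% without it) and 27 with the block and without mouse 36 (24.0%, added after the data were seen), with 0 to 8 on leaving out 1 library. The median of 0.19 became 0.3037 with the replicate block and 0.4852 with the block and without mouse 36. It was 0.45 with mice 19 to 29 and -0.0329 with mice 35 to 39 (0.0334 to 0.46 on leaving out 1 library). The 2 other pathway genes became 1 with library size alone (14.2% of all genes), with no filter (5.88%) or with mice 35 to 39 (7.07%). They became 5 with sex (19.8%) and 4 with mouse range as a covariate (21.4%). With the replicate block they became 17, and 26 with the block and without mouse 36 (1 to 15 on leaving out 1 library). The 0 mitosis genes became 11 and 17 with these blocks (0 to 5).

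For Fl/Fl 4-OHT against untreated cultures the 2 replication genes became 4 with DESeq2 (36.0% of all genes) or the dispersion of all 15 libraries (35.0%). They became 0 with mice 35 to 39 (0.0199%), with 0 to 4 on leaving out 1 library. The median of -0.19 became 0.13 with mice 19 to 29 and -0.5463 with mice 35 to 39 (-0.36 to 0.0926 on leaving out 1 library). It was -0.0964 with library size alone, -0.092 with sex and -0.106 with mouse range as a covariate. The 11 other pathway genes became 0 with mice 35 to 39 (6 to 12 on leaving out 1 library). The 3 mitosis genes became 5 with DESeq2 or the dispersion of all 15 libraries and 1 with library size alone (31.6% of all genes). They became 0 in either mouse range (32% of all genes with mice 19 to 29), with 0 to 9 on leaving out 1 library. With library size alone, calls over all genes were 1396 higher and 712 lower for 4-OHT (1088 and 956 with TMM) and 3150 and 1603 here (2357 and 2263 with TMM). The median level of the members in untreated cultures was 31.7 TPM by longest transcript. The cause of these changes was not tested.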
